A study of Mus musculus with 8 samples.

Results

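HC11 mammary epithelial cells (MEC) treated with prolactin for 72 h (PRL) were compared with primed HC11 MEC (P), with 2 libraries in each group. A gene was included where at least 2 of these 4 libraries held 1 FPKM or more (fragments scaled to the exon length of a gene and to all fragments of its library), which left 11439 of 24062 listed genes. The study sequenced RNA of 8 libraries, 2 for each of 4 groups. These were mouse embryonic stem cells (ESC, line R1 grown on feeder cells) and normal (N), P and PRL HC11 cells. Ribosomal RNA was removed, and mRNA was then enriched with oligo(dT) beads. HC11 is an established line from COMMA-1D cells of a Balb/c mouse and has stem-like properties. Its genotype is recorded as wild type for these samples, which was not tested here. N cells were grown to confluence with EGF and insulin. P cells received hydrocortisone, a glucocorticoid (GC), with insulin and without EGF for 48 h. PRL cells were primed in the same way and then kept for 72 h in fresh medium with hydrocortisone, insulin and prolactin. P and PRL therefore shared hydrocortisone and insulin and the withdrawal of EGF. They differed in prolactin, in the fresh medium and in 72 h of further culture, which cannot be told apart here.

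Prolactin is the pituitary hormone that drives milk production. It binds its receptor on the alveolar epithelium and activates the kinase JAK2, which phosphorylates STAT5, and STAT5 then enters the nucleus and binds milk protein promoters together with the GC receptor. HC11 cells are widely used for this step because they make beta-casein once they have been primed with GC and exposed to prolactin.

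Marker genes were read first. Csn2, which encodes beta-casein, stood at 0.219 and 0.320 FPKM in the P libraries and at 128 and 111 in the PRL libraries. Wap, the whey acidic protein, stood at 0.0741 and 0.289 FPKM in P and at 9.51 and 8.39 in PRL. Both genes were near 0 in P and well separated from it in PRL. The polymeric immunoglobulin receptor Pigr, which carries antibodies across the epithelium into milk, and the prostaglandin synthase and lipid carrier Ptgds were separated likewise, with their values given below. The epithelial adhesion gene Epcam was at 309.6 and 311 FPKM in P and at 311 and 308 in PRL. The stem cell factor Pou5f1 was at or below 0.0563 FPKM in these 4 libraries and the leukocyte gene Ptprc was at 0 in all of them. The fragments behind the values numbered 24001576 and 24602344 in P and 26201781 and 33916913 in PRL.

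Across the 11439 genes, 164 rose and 538 fell in PRL, where a call needs a log2 fold change of at least 1 and an adjusted p under 0.05 in limma's test on log2(FPKM + 1). These are 1.43% and 4.7% of the genes tested (6.14% in either direction). Every count of called genes in a group below is to be read against them. Counts at an unadjusted p under 0.05 have another background. At any fold, 64.3% of all genes tested had even an adjusted p under 0.05 in limma's test, 1920 higher and 5436 lower in PRL. The shares at an unadjusted p are at least as large, and every such count below is to be read against them. The test used the 6 HC11 libraries, since N helps to estimate the spread between libraries. Errors after a log2 fold change are limma's standard errors, whose variance draws on the other genes and on all 6 HC11 libraries. They are not the spread of the 2 libraries in each group. Fold changes on this scale understate the change of genes near or below 1 FPKM. Whether the 2 libraries of a group were grown as separate cultures is not stated in the labels, and p-values here cover only the variation between those libraries, which may be technical.

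The whole distribution was shifted downwards. The median log2 fold change was -0.18, a ratio of 0.880, and 68.7% of the genes were lower in PRL. Between the 2 libraries of a group the median absolute difference was 0.0570 in P and 0.0739 in PRL, against 0.299 between the groups. A difference of 1 or more on the log2 scale separated the group means in 733 genes, the P libraries in 35 and the PRL libraries in 41. The libraries of P and PRL did not overlap in 2834 genes that were higher in PRL and in 6905 that were lower. A lack of overlap was thus usual among the genes tested and sets no single gene apart. For the 20 largest rises and 20 largest falls it was also a condition of naming. When each change was taken relative to the median change, 260 genes rose (2.27%) and 280 fell (2.45%). The share of called genes that rose was therefore 23.4% on the deposited scale and 48.1% relative to the median. Genes whose call depends on this choice are named as such.

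**Figure D1:**
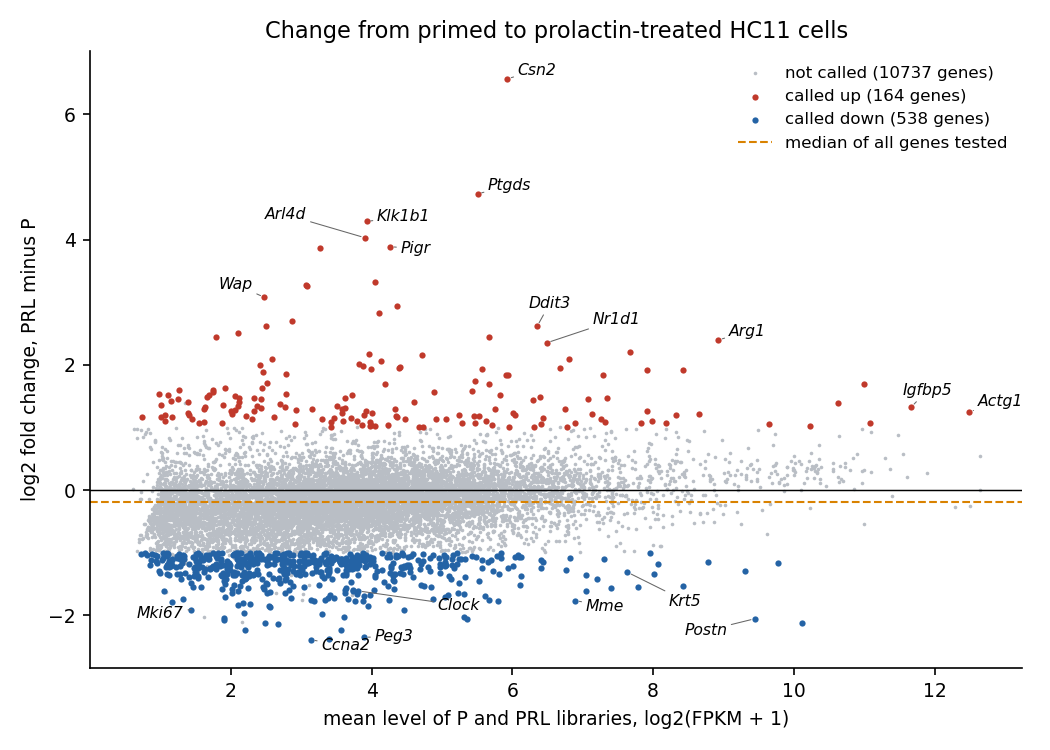
Log2 fold change of PRL over P (vertical axis) against the mean level of the 4 libraries, log2(FPKM + 1) (horizontal axis), with 1 point for each of the 11439 genes. The 164 genes called up are red, the 538 called down are blue, and the dashed line marks the median of -0.18. Csn2 lies highest at 6.57 and Ccna2 lowest at -2.39.

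The P libraries alone brought 469 genes past the filter and the PRL libraries alone 92. Such genes were bound to be higher in that group, though by no fixed amount. They include 34 of the genes that rose and 87 of those that fell. Of the 10878 genes with 1 FPKM or more in a library of each group, 130 rose (1.2%) and 451 fell (4.15%). Just inside the filter was Fam19a5, with a second-highest value of 1.00 FPKM, and just outside it was Macrod2 with 0.9998 FPKM.

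Milk protein genes. Csn2 showed the largest rise of all genes tested (log2 fold change 6.57 ± 0.09, adjusted p = 5.42e-09). It was represented by 15 fragments in the P libraries together and by 8146 in the PRL libraries, a depth-adjusted ratio of 439 with an exact 95% interval of 266 to 785 for counting error only. Wap rose as well (log2 fold change 3.08 ± 0.12, adjusted p = 4.20e-07), from 5 to 300 fragments, and its ratio was 48.5 (20.6 to 150). The third gene to rise was Pip, which encodes the prolactin-induced protein. It was at 12.0 and 10.8 FPKM in P and at 26.0 and 28.3 in PRL, with no overlap (log2 fold change 1.19 ± 0.08, adjusted p = 4.77e-06).

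The milk protein list holds 14 genes, of which 5 passed the filter and 3 rose. Csn2 and Wap passed through the PRL libraries alone. Ltf, the iron-binding lactoferrin, was at 12.6 and 17.0 FPKM in P and 9.58 and 9.01 in PRL (log2 fold change -0.60 ± 0.12, adjusted p = 0.00322). Wfdc18, a whey acidic protein relative, was among the most abundant transcripts in both groups, at 5195 and 5751 FPKM in P and 4284 and 4821 in PRL (log2 fold change -0.27 ± 0.08, adjusted p = 0.0158). Neither met the fold threshold, and both were lower in each PRL library than in each P library. The other casein genes stayed under 1 FPKM. Csn3, the kappa-casein gene, was at 0 in both P libraries and at 0.621 and 0.517 FPKM in PRL. Csn1s2a was at 0 in P and at 0.249 and 0.256 FPKM in PRL. Csn1s1 and Csn1s2b, for the other alpha-caseins, were at 0 in both PRL libraries, and the lactose synthase subunit Lalba was at 0.0521 and 0 FPKM there. Per length of exon, Wfdc18 and Csn2 were thus the most abundant of the 14 genes in PRL.

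The promoter of Csn2 is shown because that gene carries the largest change. It is the 250 bases before the RefSeq start on GRCm38.p6 (chr5:87699426-87699675, minus strand), written 5′ to 3′, with the match to TTCNNNGAA, the core letters to which STAT5 can bind, in capitals.
Csn2: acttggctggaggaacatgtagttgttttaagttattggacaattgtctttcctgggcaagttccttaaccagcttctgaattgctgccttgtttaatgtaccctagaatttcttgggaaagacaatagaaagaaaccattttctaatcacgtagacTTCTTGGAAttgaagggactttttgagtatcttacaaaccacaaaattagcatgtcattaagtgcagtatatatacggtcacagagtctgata
The match begins 93 bases before the start. The same letters, which read alike on both strands, stood in 5.75% of the 10873 windows of genes tested. Pip had 2 matches, beginning 140 and 42 bases before its start, and the windows of Wap, Pigr, Ptgds and Arl4d had none.

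Secreted and mucosal defence genes. Ptgds was at 2.74 and 1.92 FPKM in P and at 85.3 and 88.0 in PRL, the second-largest rise (log2 fold change 4.73 ± 0.12, adjusted p = 1.44e-07). Pigr was at 1.52 and 1.35 FPKM in P and at 36.3 and 33.7 in PRL (log2 fold change 3.89 ± 0.08, adjusted p = 4.90e-08). Both were low in each P library and over 10 times higher in each PRL library. Of 22 genes in this list 15 passed the filter, 2 rose and 1 fell, with a median of -0.27. Cst3, the protease inhibitor cystatin C, stood at 6384 and 6367 FPKM in P and 6459 and 6335 in PRL (log2 fold change 0.00 ± 0.06, adjusted p = 0.948), and in these libraries its 2 groups overlapped. Saa3, an acute phase protein, fell on the deposited scale (log2 fold change -1.001 ± 0.19, adjusted p = 0.00241), but it passed through the P libraries alone, and it was not called relative to the median, without P replicate 2 (-0.74) or without PRL replicate 2 (-0.99).

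Outside that list, Rnase1, a secreted ribonuclease, was at 3.01 and 3.52 FPKM in P and 31.2 and 27.3 in PRL (log2 fold change 2.83 ± 0.09, adjusted p = 2.47e-07). The chemokine Ccl28, which attracts antibody-producing plasma cells to mucosae and to the lactating gland, was at 1.29 and 0.968 FPKM in P and 7.93 and 7.09 in PRL (log2 fold change 2.001 ± 0.11, adjusted p = 2.01e-06). Every PRL library exceeded every P library for both genes. Cxcl17, a mucosal chemokine chosen after its values were seen, was at 39.7 and 42.8 FPKM in P and 159 and 164 in PRL (log2 fold change 1.95 ± 0.09, adjusted p = 1.87e-06). In the opposite direction, the interleukin 1 antagonist Il1rn fell from 3.53 and 3.73 FPKM in P to 0.794 and 0.745 in PRL (log2 fold change -1.39 ± 0.09, adjusted p = 5.29e-06), but it passed the filter through the P libraries alone. Of the interferon and antigen presentation list 18 genes passed the filter and 0 were called in limma's test or with voom weights. In limma's test 11 of them had an unadjusted p under 0.05, against at least 64.3% of all genes tested.

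Kallikreins. The glandular kallikreins are secreted serine proteases encoded side by side on mouse chromosome 7. Klk1, the tissue kallikrein that releases kinins, was at 2.47 and 1.62 FPKM in P and 30.8 and 27.4 in PRL (log2 fold change 3.32 ± 0.13, adjusted p = 9.13e-07). Klk1b1 was at 0.836 and 0.192 FPKM in P and 28.5 and 27.4 in PRL (log2 fold change 4.29 ± 0.19, adjusted p = 8.23e-06). Klk1b9 was at 0.335 and 0.140 FPKM in P and 18.8 and 15.3 in PRL (log2 fold change 3.86 ± 0.12, adjusted p = 2.09e-07). In all 3 the PRL libraries lay far above the P libraries, and in N each was at or below 0.0515 FPKM.

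Of 23 kallikrein genes listed, 14 passed the filter. Of these, Klk1 alone had 1 FPKM or more in both groups. Klk1b3, Klk1b4, Klk1b5, Klk1b8, Klk1b11, Klk1b16, Klk1b21 and Klk1b22 also rose, but these and Klk1b1 and Klk1b9 passed through the PRL libraries alone, so their number supports nothing. Klk10 fell, and it passed through the P libraries alone. The depth-adjusted ratio was 14.1 for Klk1 (exact 95% interval 11.4 to 17.8, for counting error only), 54.6 for Klk1b1 (35.6 to 88.5) and 71.1 for Klk1b9 (38.5 to 149). The transcripts of the 12 Klk1 genes that passed are 88.3 to 94.3% identical to their closest relative among them. Reads shared by such copies may be assigned to the wrong member, so the values of single Klk1b genes are uncertain.

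**Figure D2:**
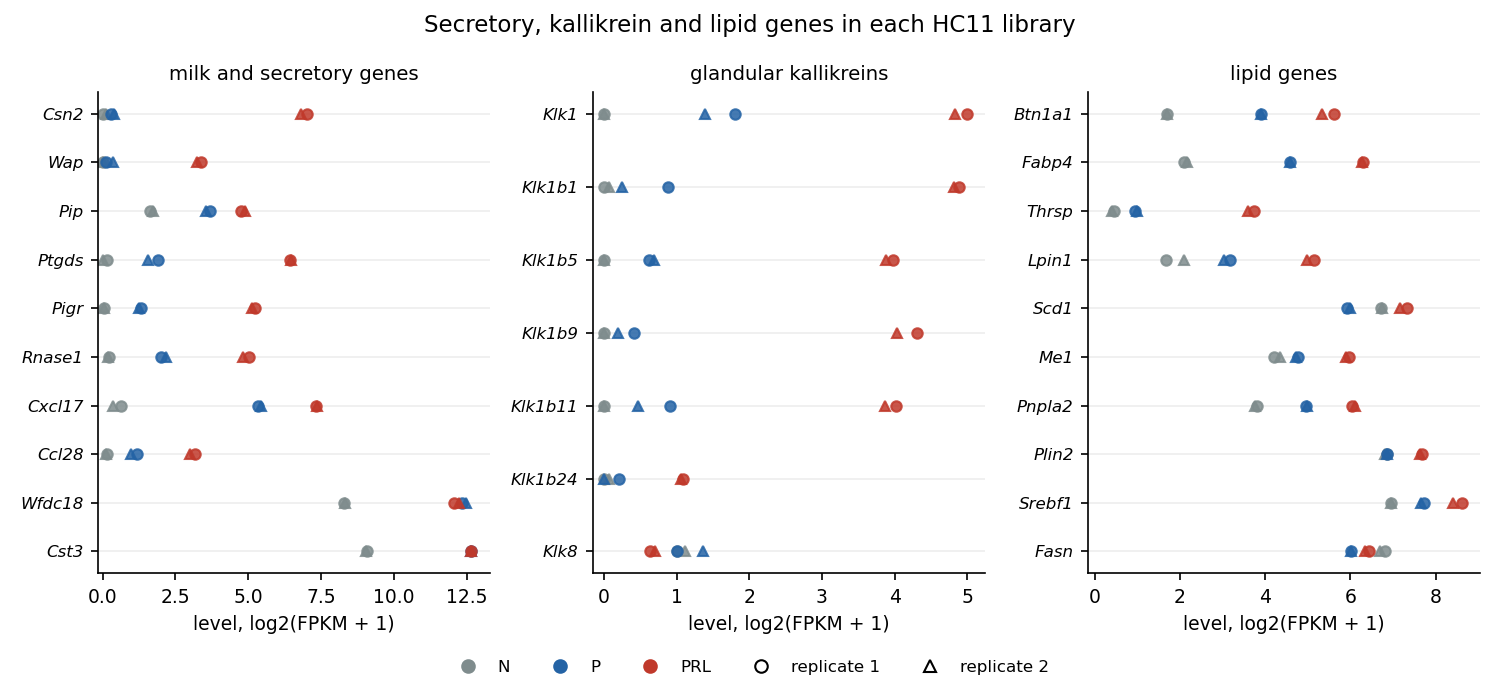
Level of secretory, kallikrein and lipid genes in each HC11 library, as log2(FPKM + 1) on the horizontal axes, with circles for replicate 1 and triangles for replicate 2 of N (grey), P (blue) and PRL (red). The PRL points of Csn2, Ptgds, Pigr and the Klk1 genes stand clear of the P points, while those of Cst3 lie on top of them.

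Lipid genes. Of the milk fat globule and lipid droplet list 15 of 21 genes passed the filter, 4 rose and 0 fell, with a median of 0.61. By limma's unadjusted p under 0.05 at any fold, 12 were higher and 1 lower. Btn1a1, butyrophilin of the milk fat globule membrane, was at 13.9 and 13.9 FPKM in P and 47.8 and 39.1 in PRL (log2 fold change 1.57 ± 0.09, adjusted p = 2.70e-06). Fabp4, a fatty acid carrier best known from adipocytes, was at 23.1 and 23.0 FPKM in P and 77.6 and 76.3 in PRL (log2 fold change 1.69 ± 0.05, adjusted p = 2.12e-07). Both sets of libraries were far apart. The phosphatidate phosphatase Lpin1 (log2 fold change 1.96 ± 0.14, adjusted p = 6.15e-05) and the triglyceride lipase Pnpla2 (log2 fold change 1.11 ± 0.05, adjusted p = 1.27e-06) rose too. The droplet coat protein Plin2 and the fat globule protein Xdh, both chosen after their values were seen, differed by 0.80 ± 0.05 and 0.30 ± 0.05 on the log2 scale and missed the fold threshold.

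Of the fatty acid synthesis list 19 of 20 genes passed, 3 rose and 0 fell, with a median of 0.33, and by the unadjusted p 10 were higher and 6 lower. Thrsp, which promotes lipid synthesis in the mammary gland, was at 0.923 and 0.979 FPKM in P and 12.2 and 11.1 in PRL (log2 fold change 2.70 ± 0.09, adjusted p = 2.26e-07). It passed through the PRL libraries alone. Scd1, the desaturase that makes oleate, was at 59.6 and 62.7 FPKM in P and 159.7 and 142 in PRL (log2 fold change 1.29 ± 0.06, adjusted p = 1.39e-06). Me1, the malic enzyme that supplies NADPH, rose as well (log2 fold change 1.18 ± 0.06, adjusted p = 1.75e-06). The 2 enzymes of the central pathway, Fasn and Acaca, both chosen after their values were seen, differed by 0.39 ± 0.06 and -0.25 ± 0.07 and were not called. Srebf1, the factor that controls these enzymes, was at 211 and 200.3 FPKM in P and 393 and 339 in PRL and was not called on the deposited scale (log2 fold change 0.83 ± 0.07, adjusted p = 2.03e-05) but was called relative to the median, with median ratio scaling and within bins of exon length. Of 23 cholesterol synthesis genes that passed, 1 rose. That was Insig1, the sterol sensor that retains SREBP in the endoplasmic reticulum (log2 fold change 1.30 ± 0.14, adjusted p = 3.89e-04).

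The adipocyte list was read beside these genes. Of its 8 genes only Fabp4 passed the filter. The list summed to 23.5 and 23.4 FPKM in P and to 78.1 and 76.6 in PRL, of which Fabp4 made up nearly all. Adipoq was at 0 in both P libraries and at 0.0310 and 0 FPKM in PRL, and Pparg stayed at or below 0.115 FPKM in all 4.

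Receptor and signalling genes. Of 23 genes of the prolactin receptor and JAK-STAT list that passed the filter, 0 were called, with a median of -0.10 against -0.18 over all genes. In this list 11 of the 23 genes had an unadjusted p under 0.05 in limma's test, 2 higher and 9 lower. Over all genes tested that share was at least 64.3%. With voom weights on fragments limma called 1 gene of the list, which fell. Stat5a was at 19.7 and 19.8 FPKM in P and 20.9 and 17.7 in PRL (log2 fold change -0.03 ± 0.08, adjusted p = 0.721). Stat5b was at 11.5 and 11.2 FPKM in P and 12.2 and 10.9 in PRL (log2 fold change 0.02 ± 0.08, adjusted p = 0.841). The values of both genes overlapped between the groups. The receptor gene Prlr, chosen after its values were seen, was at 1.71 and 2.28 FPKM in P and 0.623 and 0.536 in PRL (log2 fold change -0.91 ± 0.11, adjusted p = 1.53e-04). It passed the filter through the P libraries alone. It was lower in each PRL library and just missed the threshold, which it passed with smaller pseudocounts, where its log2 fold change was -1.20 at 0.5 and -1.61 at 0.1. Prlr rested on 549 and 751 fragments in P and on 219 and 244 in PRL.

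Among 14 STAT5 feedback and target genes that passed, 0 rose and 1 fell on the deposited scale. Cish, a feedback inhibitor induced by STAT5 and chosen after its values were seen, was at 4.95 and 4.95 FPKM in P and 10.01 and 9.11 in PRL. Its groups did not overlap, and it was not called on the deposited scale (log2 fold change 0.83 ± 0.07, adjusted p = 2.64e-05) but was called relative to the median, with median ratio scaling and after quantile normalization. Ccnd1, cyclin D1, fell from 21.6 and 24.4 FPKM in P to 8.27 and 7.94 in PRL (log2 fold change -1.40 ± 0.07, adjusted p = 1.57e-06). The kinase gene Pim3, outside the list, was at 71.5 and 71.1 FPKM in P and 333 and 333 in PRL (log2 fold change 2.21 ± 0.05, adjusted p = 4.90e-08).

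Stress response genes. The integrated stress response slows general translation when the factor eIF2 is phosphorylated and raises the transcription factor ATF4, whose targets take up and make amino acids or limit the stress. Of 21 genes listed, 19 passed the filter, 12 rose and 0 fell, with a median of 1.20. By limma's unadjusted p under 0.05 at any fold, 17 were higher and 1 lower. Among the 18 with 1 FPKM or more in both groups 11 rose, against 1.2% of all such genes. This was the list with the most genes that rose.

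Ddit3, the factor CHOP, was at 24.6 and 19.5 FPKM in P and 128 and 151 in PRL (log2 fold change 2.61 ± 0.13, adjusted p = 2.15e-05). Trib3, a pseudokinase induced by ATF4 and CHOP, was at 14.2 and 15.4 FPKM in P and 77.2 and 92.7 in PRL (log2 fold change 2.44 ± 0.13, adjusted p = 3.79e-05). Atf3, another stress factor of this pathway, was at 5.99 and 5.53 FPKM in P and 24.8 and 29.6 in PRL (log2 fold change 2.06 ± 0.11, adjusted p = 3.87e-06). In all 3 genes each PRL library was over 4 times the level of each P library. Replicate 2 was the higher of the PRL libraries in each of them. Chac1, which degrades glutathione, was at 4.80 and 4.35 FPKM in P and 19.2 and 24.3 in PRL (log2 fold change 2.02 ± 0.34, adjusted p = 0.00992). With only 1 P library the call on Chac1 was lost, at a log2 fold change of 2.08 (adjusted p = 0.0590) without P replicate 1 and 1.96 (adjusted p = 0.0656) without P replicate 2.

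Further members, chosen after their values were seen, were the phosphatase subunit Ppp1r15a, which restores translation (log2 fold change 1.95 ± 0.14, adjusted p = 5.58e-05), the stress factor Nupr1 (log2 fold change 1.92 ± 0.06, adjusted p = 2.32e-07) and the asparagine synthetase Asns (log2 fold change 1.20 ± 0.08, adjusted p = 9.38e-06). Atf4 itself was at 146 and 147 FPKM in P and 291 and 323 in PRL (log2 fold change 1.06 ± 0.06, adjusted p = 2.64e-06). It was above P in both PRL libraries and missed the fold threshold without PRL replicate 2, at 0.99, and after quantile normalization, at 0.92. Cebpg and Vldlr, the most abundant members not called, differed by 0.11 ± 0.05 and 0.18 ± 0.05.

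The amino acid genes moved less. Of the serine, proline and one-carbon list 20 of 22 genes passed, 2 rose and 1 fell, with a median of 0.38, and relative to the median 4 rose and 0 fell. The mitochondrial folate enzyme Mthfd2 was at 29.9 and 30.9 FPKM in P and 70.2 and 81.4 in PRL (log2 fold change 1.29 ± 0.07, adjusted p = 3.19e-06). Slc7a5, the light chain of the large neutral amino acid transporter, was at 25.3 and 26.7 FPKM in P and 89.6 and 101 in PRL (log2 fold change 1.83 ± 0.33, adjusted p = 0.0144). Both were higher in each PRL library. Of the amino acid transporter list, to which Slc7a5 belongs, 18 of 25 genes passed, with a median of -0.20, and beside Slc7a5 only the glutamate transporter Slc1a3 was called, which fell (log2 fold change -1.13 ± 0.08, adjusted p = 5.48e-06) but was not called relative to the median. The call on Slc7a5 was lost with 1 library left out, at an adjusted p of 0.0775 without P replicate 1, 0.0713 without P replicate 2 and 0.0616 without PRL replicate 2. Of 20 cytosolic aminoacyl-tRNA synthetases 1 rose, Aars for alanine (log2 fold change 1.003 ± 0.10, adjusted p = 1.62e-04), and it fell short without PRL replicate 2 at 0.94. The median of the synthetases was 0.34. Outside these lists the urea cycle enzyme Arg1 was at 163 and 146 FPKM in P and 827 and 806 in PRL (log2 fold change 2.40 ± 0.07, adjusted p = 1.44e-07), the largest rise among genes above 100 FPKM in P.

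The unfolded protein response of the endoplasmic reticulum was described by 34 genes, of which 33 passed and 1 rose, with a median of 0.21. Herpud1, which helps to degrade misfolded proteins, was at 66.8 and 67.3 FPKM in P and 227 and 259 in PRL (log2 fold change 1.84 ± 0.12, adjusted p = 3.88e-05). The chaperone Hspa5 (BiP), chosen after its values were seen, was at 254 and 262 FPKM in P and 379 and 531 in PRL (log2 fold change 0.79 ± 0.16, adjusted p = 0.00812). The groups of Hspa5 did not overlap, but the PRL libraries were far apart from each other. Xbp1, a regulator of this response, was at 61.2 and 62.5 FPKM in P and 118 and 126 in PRL and was not called (log2 fold change 0.97 ± 0.06, adjusted p = 3.82e-06), although it was relative to the median, with median ratio scaling, within bins of GC content or length and without PRL replicate 1 (1.02). Relative to the median 5 genes of the list rose, and without PRL replicate 1 on the deposited scale 5 rose as well.

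The promoters of Chac1 and Asns are shown because a match to TGATGNAA, the letters of many composite sites for ATF4 with its partners, was searched in this list. They are the 250 bases before the RefSeq start on GRCm38.p6, for Chac1 chr2:119350992-119351241 on the plus strand and for Asns chr6:7693210-7693459 on the minus strand. Matches on either strand are in capitals.
Chac1: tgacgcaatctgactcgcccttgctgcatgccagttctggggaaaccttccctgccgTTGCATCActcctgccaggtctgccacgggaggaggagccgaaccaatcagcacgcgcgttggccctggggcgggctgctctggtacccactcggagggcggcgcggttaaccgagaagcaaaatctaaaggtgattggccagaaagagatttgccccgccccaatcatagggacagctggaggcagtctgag
Asns: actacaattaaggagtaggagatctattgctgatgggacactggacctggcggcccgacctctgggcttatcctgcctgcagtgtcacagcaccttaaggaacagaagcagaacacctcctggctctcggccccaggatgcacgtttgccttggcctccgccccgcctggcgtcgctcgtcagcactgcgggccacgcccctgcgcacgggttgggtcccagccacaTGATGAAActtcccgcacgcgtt
The match begins 193 bases before the start of Chac1 and 23 bases before that of Asns. The letters, or TTNCATCA as the other strand reads, stood in the windows of 6 of 17 stress response genes that passed and have a window, and in 30.0% of 20 windows. They stood in 1.85% of the windows of genes tested. Atf3 and Nupr1 each had a match that begins 110 bases before the start, and Ddit3 and Trib3 had none in this window.

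Cell division genes. Genes of mitosis formed the list with the most falls. Of 64 genes 57 passed the filter, 48 fell and 0 rose, with a median of -1.34, and all 57 were lower at an unadjusted p under 0.05 in limma's test. Of the 48, 26 passed through the P libraries alone, so the count is better read from the 25 genes at 1 FPKM or more in both groups, of which 22 fell, against 4.15% of all such genes. Of these 25 genes 19 fell relative to the median, 19 with median ratio scaling, 18 after quantile normalization and 19 after centring within bins of GC content, and 0 rose in any of these.

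Ccna2, cyclin A2 of S phase and mitosis, was at 13.4 and 14.2 FPKM in P and 1.91 and 1.72 in PRL (log2 fold change -2.39 ± 0.06, adjusted p = 1.19e-07), the largest fall of all genes tested. Top2a, the topoisomerase that untangles chromosomes, was at 9.17 and 9.67 FPKM in P and 1.33 and 1.41 in PRL (log2 fold change -2.14 ± 0.06, adjusted p = 1.51e-07). Mki67, the proliferation antigen Ki-67, was at 3.14 and 3.41 FPKM in P and 0.136 and 0.140 in PRL (log2 fold change -1.91 ± 0.07, adjusted p = 5.09e-07). In each of these genes every PRL library lay over 5-fold below every P library. The levels in P were already low, with N at 139 and 131 FPKM for Ccna2, 87.9 and 92.1 for Top2a and 25.1 and 25.6 for Mki67.

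The mitotic kinase Cdk1 (log2 fold change -1.52 ± 0.07, adjusted p = 9.02e-07), its partner cyclin Ccnb1 (log2 fold change -1.59 ± 0.09, adjusted p = 2.34e-06) and the kinase Plk1 (log2 fold change -1.62 ± 0.07, adjusted p = 7.30e-07), all chosen after their values were seen, fell too. So did the ubiquitin enzyme Ube2c of the anaphase-promoting complex (log2 fold change -1.98 ± 0.12, adjusted p = 2.97e-05) and the kinase Aurkb (log2 fold change -1.70 ± 0.08, adjusted p = 1.08e-06). Aurkb, like Mki67, passed the filter through the P libraries alone, which fixed the direction of its change but not the size. Of the 9 members not called, Cdc25b, a phosphatase that activates CDK1, was at 19.6 and 19.8 FPKM in P and 12.3 and 13.5 in PRL (log2 fold change -0.58 ± 0.06, adjusted p = 4.63e-05). Mad2l1, of the spindle checkpoint, differed by -0.99 ± 0.07 and was called with pseudocounts of 0.1 and 0.5. Cenpf, of the kinetochore, did not pass the filter, since only 1 library reached 1 FPKM, and was at 0.974 and 1.32 FPKM in P and at 0.0240 and 0.0504 in PRL.

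Of 53 DNA replication genes 46 passed, 10 fell and 0 rose (6 fell after quantile normalization), with a median of -0.59. By limma's unadjusted p under 0.05, 41 were lower and 2 higher. Of the 10 that fell, 3 passed through the P libraries alone, which fixed the direction of their change. Among the 41 genes at 1 FPKM or more in both groups 7 fell, against 4.15% of all such genes. Tk1, thymidine kinase, was at 18.6 and 18.4 FPKM in P and 2.96 and 3.30 in PRL (log2 fold change -2.24 ± 0.07, adjusted p = 1.84e-07). Rrm2, the ribonucleotide reductase subunit that makes deoxynucleotides, was at 7.91 and 8.39 FPKM in P and 1.17 and 1.01 in PRL (log2 fold change -2.13 ± 0.07, adjusted p = 2.12e-07). Mcm5, a subunit of the replicative helicase, was at 7.49 and 8.77 FPKM in P and 1.51 and 1.56 in PRL (log2 fold change -1.85 ± 0.08, adjusted p = 1.01e-06). Its fellow subunits Mcm2 and Mcm3, chosen after their values were seen, differed by -0.29 ± 0.05 and -0.78 ± 0.06 and were not called. The sliding clamp Pcna was at 74.4 and 76.4 FPKM in P and 66.0 and 69.3 in PRL (log2 fold change -0.15 ± 0.05, adjusted p = 0.0281), close to the median change. The members of this complex and pathway thus differed by unequal amounts. Fewer dividing cells and less of these transcripts in each cell cannot be told apart in RNA of a whole culture, and the same holds for the other gene groups.

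The promoters of Cdk1 and Ube2c are shown for TTTGAA, the letters of the cell cycle homology region through which genes of G2 phase and mitosis are repressed. They are the 250 bases before the RefSeq start on GRCm38.p6, chr10:69352913-69353162 on the minus strand for Cdk1 and chr2:164769679-164769928 on the plus strand for Ube2c, with matches on either strand in capitals.
Cdk1: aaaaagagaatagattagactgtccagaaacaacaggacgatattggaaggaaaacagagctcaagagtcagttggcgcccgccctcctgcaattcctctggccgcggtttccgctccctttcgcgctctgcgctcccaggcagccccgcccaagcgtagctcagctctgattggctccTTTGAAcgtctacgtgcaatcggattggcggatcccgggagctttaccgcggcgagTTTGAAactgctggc
Ube2c: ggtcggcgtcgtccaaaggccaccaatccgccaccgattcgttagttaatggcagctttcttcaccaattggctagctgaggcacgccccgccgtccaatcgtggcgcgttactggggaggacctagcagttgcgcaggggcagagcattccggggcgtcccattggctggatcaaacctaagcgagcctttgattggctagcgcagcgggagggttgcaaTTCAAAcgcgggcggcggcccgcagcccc
Matches begin 71 and 15 bases before the start of Cdk1 and 29 bases before that of Ube2c. The letters, or TTCAAA on the other strand, stood in 40.0% of 45 windows of mitosis genes that passed, in 17 of 43 genes. They stood in 10.3% of the windows of genes tested and in 15.9% of those of genes that fell. Cdc20 had a match 18 bases before the start and Top2a had matches at 179 and 23 bases, while Plk1 and Ccnb1 had none in this window.

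Histone genes went the other way. Of 65 replication-dependent histone genes 15 passed, 8 rose and 0 fell, 12 were higher and 0 lower at an unadjusted p under 0.05, and of the 10 at 1 FPKM or more in both groups 4 rose. The genes that rose were 7 for histone H4 and Hist1h1c, a linker histone chosen after its values were seen. Hist1h1c was at 26.6 and 28.6 FPKM in P and 61.0 and 57.4 in PRL (log2 fold change 1.07 ± 0.08, adjusted p = 1.77e-05). Hist1h4i was at 5.69 and 6.05 FPKM in P and 18.8 and 18.4 in PRL (log2 fold change 1.51 ± 0.41, adjusted p = 0.0409), and its call was lost when any 1 of the 4 libraries was left out, with adjusted p-values of 0.118 to 0.158. The H4 transcripts are 93.3 to 98.4% identical to their closest relative, so the values of single H4 genes are uncertain. Most histone transcripts lack a poly(A) tail, and whether their recovery differed between libraries was not tested.

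**Figure D3:**
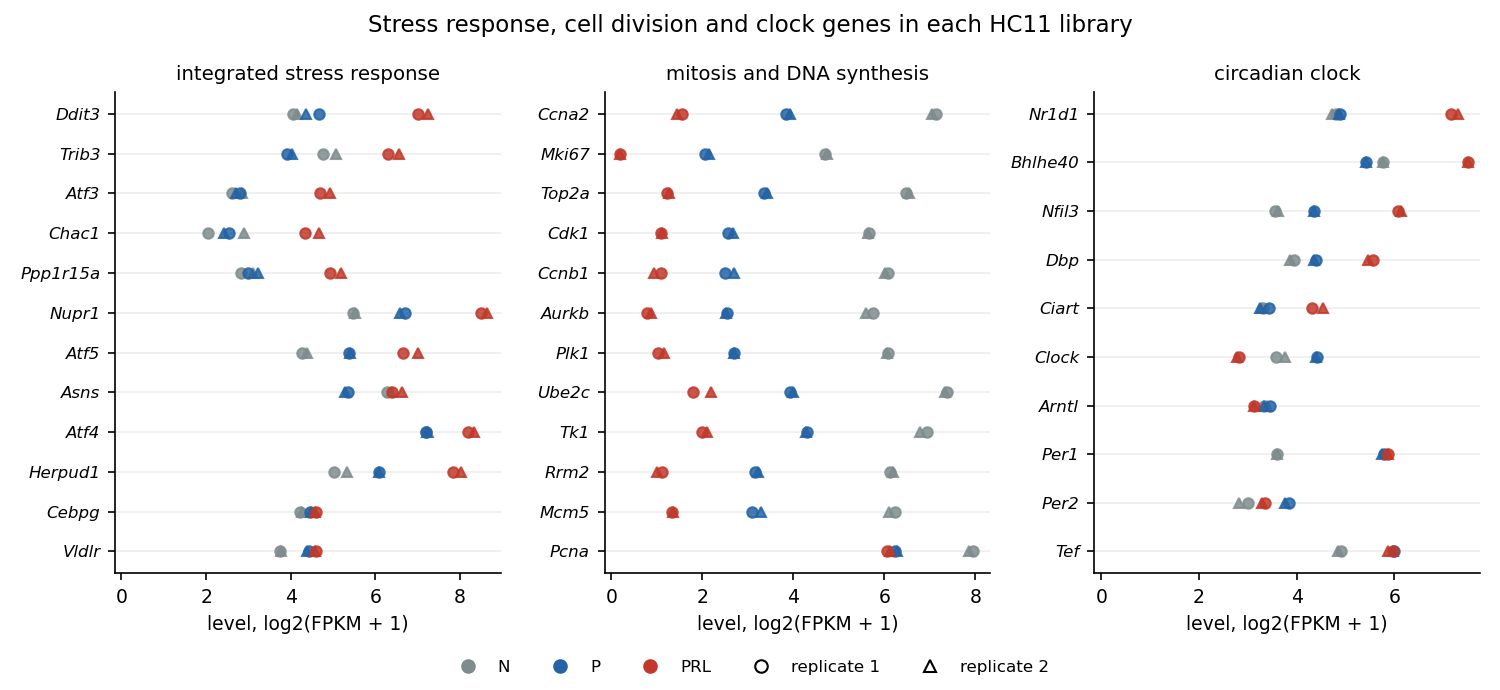
Level of stress response, cell division and circadian clock genes in each HC11 library, as log2(FPKM + 1) on the horizontal axes, with circles for replicate 1 and triangles for replicate 2 of N (grey), P (blue) and PRL (red). The division genes step down from N to P and from P to PRL, except for Pcna, whose P and PRL points lie close together, and Ddit3 to Herpud1 stand higher in PRL than in P.

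Clock genes. The circadian clock runs on the activators CLOCK and BMAL1, which switch on their own repressors and output genes through E-boxes. Of 22 genes 21 passed, 5 rose and 1 fell, with a median of -0.10. Nr1d1, the repressor REV-ERB alpha, was at 28.7 and 28.2 FPKM in P and 142 and 157 in PRL (log2 fold change 2.35 ± 0.06, adjusted p = 1.19e-07). Bhlhe40, the repressor DEC1, was at 41.7 and 41.8 FPKM in P and 180.1 and 181 in PRL (log2 fold change 2.09 ± 0.04, adjusted p = 4.90e-08). Nfil3, a repressor that shares its sites with DBP, rose too (log2 fold change 1.75 ± 0.05, adjusted p = 1.84e-07). Clock fell from 20.3 and 19.99 FPKM in P to 6.02 and 5.82 in PRL (log2 fold change -1.61 ± 0.07, adjusted p = 1.04e-06).

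The output factor Dbp (log2 fold change 1.14 ± 0.06, adjusted p = 2.18e-06) and the repressor Ciart (log2 fold change 1.08 ± 0.09, adjusted p = 1.82e-05), both chosen after their values were seen, rose as well, and Ciart fell short of the threshold without P replicate 2 (0.997) and without PRL replicate 2 (0.97). The other core genes, chosen in the same way, were not called. Arntl, which encodes BMAL1, differed by -0.26 ± 0.07, Per1 by 0.11 ± 0.05, Per2 by -0.48 ± 0.08 and Nr1d2, the relative of Nr1d1, by -0.16 ± 0.06. The hour of harvest is not given in the sources used here, and its part in these differences was not tested.

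Hormone response and ion transport genes. Of the list of the GC receptor, its enzymes and targets 19 of 22 genes passed, 7 rose and 1 fell (11 rose relative to the median), with a median of 0.90. Both groups received hydrocortisone, P for 48 h and PRL for a further 72 h in fresh medium. Its longer presence and renewal cannot be told apart from prolactin here. Fkbp5, a chaperone of the receptor and a known GC target, was at 86.0 and 84.9 FPKM in P and 249 and 228 in PRL (log2 fold change 1.47 ± 0.08, adjusted p = 2.45e-06). Hsd11b2, which inactivates cortisol, was at 0.361 and 0.220 FPKM in P and 6.48 and 6.16 in PRL (log2 fold change 2.51 ± 0.10, adjusted p = 5.16e-07), and it passed through the PRL libraries alone. The metallothionein Mt1 rose from 863 and 878 FPKM in P to 2110.1 and 2459 in PRL (log2 fold change 1.39 ± 0.08, adjusted p = 2.34e-06) and missed the fold threshold after quantile normalization, at 0.996. Angptl4, a lipase inhibitor, fell from 33.5 and 34.0 FPKM to 8.24 and 8.18 (log2 fold change -1.92 ± 0.07, adjusted p = 2.63e-07). Lcn2, an iron-scavenging protein, was not called on the deposited scale (log2 fold change 0.90 ± 0.07, adjusted p = 8.32e-06) but was called relative to the median and with median ratio scaling.

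Of 15 genes for the sodium pump and water transport that passed, 3 rose and 1 fell. Atp1b1, a beta subunit of the pump, was at 192 and 196 FPKM in P and 449.9 and 441 in PRL (log2 fold change 1.20 ± 0.05, adjusted p = 5.55e-07). Fxyd2, which tunes the pump, was at 3.73 and 3.76 FPKM in P and 33.7 and 37.2 in PRL (log2 fold change 2.94 ± 0.07, adjusted p = 7.23e-08). The libraries of P and PRL were apart for both genes. Fxyd6, a relative of Fxyd2, fell on the deposited scale (log2 fold change -1.18 ± 0.10, adjusted p = 2.16e-05) but not relative to the median.

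Of 16 genes of calcium and phosphate transport that passed, 4 rose and 1 fell. Of the 4, 1 passed through the PRL libraries alone. Among the 15 genes at 1 FPKM or more in both groups 3 rose, against 1.2% of all such genes. The phosphate carriers Slc34a2, at 2.06 and 1.93 FPKM in P and 10.7 and 8.96 in PRL (log2 fold change 1.85 ± 0.10, adjusted p = 2.18e-06), and Slc20a1 (log2 fold change 1.84 ± 0.07, adjusted p = 3.29e-07) rose. So did the carbonic anhydrase Car2 (log2 fold change 1.37 ± 0.13, adjusted p = 3.48e-05). The calcium channel Trpv6 fell from 34.2 and 36.8 FPKM in P to 13.3 and 15.2 in PRL (log2 fold change -1.26 ± 0.08, adjusted p = 3.82e-06). Iron genes changed in both directions. Ftl1, the ferritin light chain, was at 965 and 957 FPKM in P and 3006 and 3234 in PRL (log2 fold change 1.70 ± 0.06, adjusted p = 3.57e-07). The metal reductase Steap4 was at 317 and 339.8 FPKM in P and 119 and 105 in PRL (log2 fold change -1.54 ± 0.07, adjusted p = 1.01e-06).

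Metabolic genes. Of 29 genes of glycolysis and the hypoxia response 28 passed, 8 rose and 0 fell, with a median of 0.57, and by the unadjusted p 22 were higher and 1 lower. Hk2, a hexokinase, was at 20.9 and 20.4 FPKM in P and 64.8 and 62.3 in PRL (log2 fold change 1.57 ± 0.05, adjusted p = 2.47e-07). The glucose transporter Slc2a1 was at 72.0 and 70.8 FPKM in P and 199 and 195 in PRL (log2 fold change 1.45 ± 0.05, adjusted p = 2.15e-07). Ndrg1, a gene raised by low oxygen, was at 143 and 142 FPKM in P and 521 and 558 in PRL (log2 fold change 1.91 ± 0.06, adjusted p = 2.20e-07). The libraries of P and PRL did not overlap in these genes. The glycolytic enzyme Pkm differed by 0.28 ± 0.06 and was not called, and neither was Gapdh on the deposited scale (log2 fold change 0.87 ± 0.06, adjusted p = 8.58e-06), although it was relative to the median and with median ratio scaling. Nqo1, an antioxidant enzyme controlled by NRF2, fell from 199 and 197 FPKM in P to 64.8 and 63.4 in PRL (log2 fold change -1.61 ± 0.05, adjusted p = 1.44e-07), while Hmox1, which shares that control and degrades haem, rose (log2 fold change 1.49 ± 0.06, adjusted p = 4.89e-07). Of 81 ribosomal protein genes and 78 genes of oxidative phosphorylation that passed, 0 were called in either list by limma, with medians of 0.25 and 0.19. With voom weights 0 and 1 were called. At an unadjusted p under 0.05, 56 ribosomal protein genes were higher and 3 lower, and 48 genes of oxidative phosphorylation were higher and 8 lower.

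Matrix, keratin and growth factor genes. Of the fibrillar matrix list 29 of 33 genes passed, 5 fell and 1 rose, with a median of -0.62. Postn, periostin, was at 1175 and 1074 FPKM in P and 286 and 254 in PRL (log2 fold change -2.06 ± 0.08, adjusted p = 5.06e-07). Col3a1, a fibrillar collagen, was at 51.0 and 50.6 FPKM in P and 16.5 and 14.0 in PRL (log2 fold change -1.68 ± 0.09, adjusted p = 2.34e-06). Col7a1, which anchors the epithelium to its base, fell as well (log2 fold change -1.71 ± 0.13, adjusted p = 7.46e-05). The proteoglycan Dcn rose from 8.88 and 7.18 FPKM in P to 21.4 and 18.1 in PRL (log2 fold change 1.20 ± 0.11, adjusted p = 3.03e-05). Of 17 matrix proteases and inhibitors that passed, 5 fell and 0 rose (14 lower and 2 higher at limma's unadjusted p under 0.05). Among those that fell was Mmp11 (log2 fold change -1.28 ± 0.06, adjusted p = 1.04e-06), and relative to the median 3 fell and 1 rose. Of the 5, 1 passed through the P libraries alone. Among the 14 genes at 1 FPKM or more in both groups 4 fell, against 4.15% of all such genes. Whether cells other than MEC were present was read from fibroblast markers, whose 10 genes summed to 1247 and 1143 FPKM in P and to 330 and 291 in PRL, most of it from Postn. Of the 10 markers 7 passed, of which Postn and Col3a1 fell and Dcn rose. Of those not called, Col1a1, chosen after its values were seen, was at 1.76 and 1.48 FPKM in P and 0.422 and 0.370 in PRL. It passed the filter through the P libraries alone. With pseudocounts of 0.5 (-1.24) and 0.1 (-1.79) and with voom weights (-2.03) Col1a1 was called as a fall. Pdgfra was at 3.56 and 3.78 FPKM in P and 2.11 and 1.68 in PRL. The part of such cells in the fall of matrix genes was not tested.

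The basal keratins Krt5, at 279 and 285 FPKM in P and 109.7 and 117 in PRL (log2 fold change -1.31 ± 0.05, adjusted p = 6.07e-07), and Krt14, at 590.0 and 618 and 263 and 280.3 (log2 fold change -1.15 ± 0.06, adjusted p = 1.75e-06), fell, the latter not relative to the median. The luminal keratin Krt18 was at 129 and 132 FPKM in P and 255 and 261 in PRL. Krt18 was not called on the deposited scale (log2 fold change 0.98 ± 0.05, adjusted p = 1.66e-06). It was called relative to the median, with median ratio scaling and within bins of GC content or length. Of the luminal keratin and junction list 26 genes passed and 0 were called on the deposited scale, with a median of -0.04. Luminal Krt8 and basal Krt17, given here after their values were seen, differed by 0.16 and 0.93. Neither was called on the deposited scale, and Krt17 was called relative to the median. Acta2, smooth muscle actin of the myoepithelium, rose from 1.04 and 1.34 FPKM in P to 5.16 and 5.18 in PRL (log2 fold change 1.498 ± 0.13, adjusted p = 1.89e-05). Thus the genes of the basal list, of which 17 passed, 1 rose and 2 fell, did not change in 1 direction. Actg1, a cytoplasmic actin, was the most abundant of the genes labelled in the plot of change against level, at 3310.4 and 3523 FPKM in P and 8114 and 8102 in PRL (log2 fold change 1.25 ± 0.07, adjusted p = 1.87e-06), and was not called after quantile normalization, at 0.70.

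Igfbp5, an IGF-binding protein best known from the involuting mammary gland, was at 1894 and 1815 FPKM in P and 4818 and 4478 in PRL (log2 fold change 1.32 ± 0.07, adjusted p = 1.55e-06). It made up 1.11% and 1.06% of the fragments in P and 2.82% and 2.62% in PRL, more than any other gene in these libraries, and it was not called after quantile normalization, at 0.85. Igfbp3, another member, fell from 49.2 and 50.2 FPKM to 21.3 and 19.6 (log2 fold change -1.24 ± 0.06, adjusted p = 1.10e-06). The imprinted zinc finger gene Peg3 was at 23.9 and 23.8 FPKM in P and 4.21 and 3.56 in PRL (log2 fold change -2.35 ± 0.07, adjusted p = 2.09e-07). The stem cell antigen Ly6a was at 57.7 and 68.2 FPKM in P and 13.5 and 15.7 in PRL (log2 fold change -2.04 ± 0.13, adjusted p = 8.68e-05), and the peptidase Mme, a basal cell marker, was at 182 and 184 and 53.3 and 52.9 (log2 fold change -1.76 ± 0.06, adjusted p = 2.42e-07). The transcriptional repressor Trps1 fell from 77.1 and 78.0 FPKM to 22.7 and 21.7 (log2 fold change -1.76 ± 0.05, adjusted p = 1.84e-07). None of these genes overlapped between the groups, which was a condition of naming for the largest rises and falls.

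**Figure D4:**
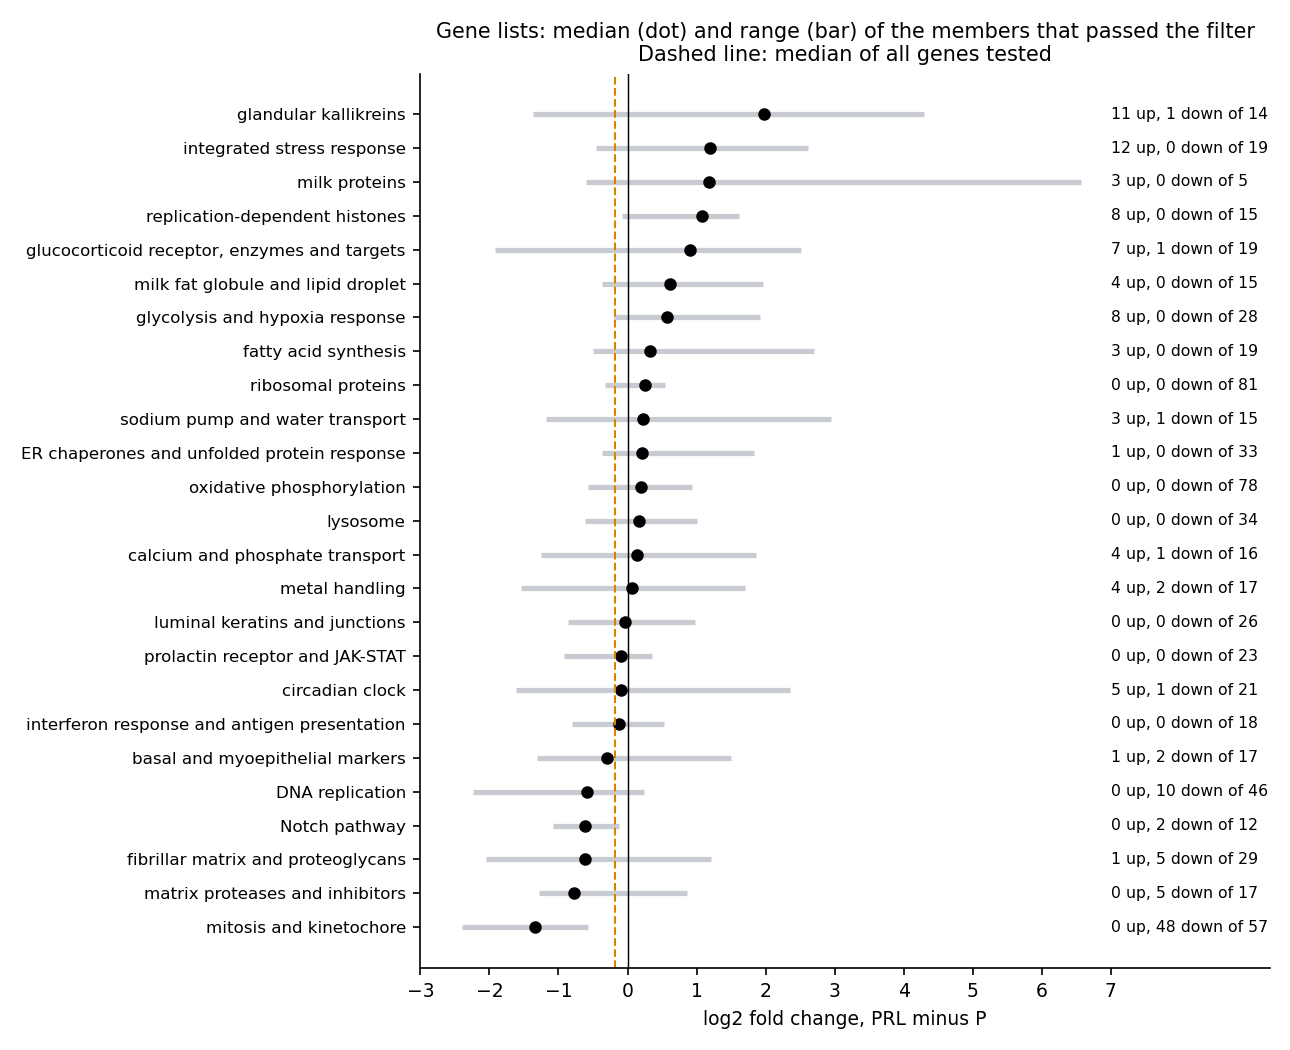
Log2 fold change of PRL over P for 25 gene lists, with the median (dot) and the range (grey bar) of the members that passed the filter, and the number that rose and fell at the right. The dashed line marks the median of -0.18 over all genes tested. The medians run from -1.34 for mitosis to 1.97 for the kallikreins, many of whose members passed the filter through 1 group alone.

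Small RNA genes. Of 222 microRNA, snoRNA and other small RNA genes that passed, 34 fell (15.3%) and 1 rose, with a median of -0.59. Mir140 was the most abundant of the small RNA genes named, with 3023 and 3082 fragments in P and 853 and 868 in PRL (log2 fold change -2.12 ± 0.16, adjusted p = 1.32e-04). It lies within Wwp2, a ubiquitin ligase gene that fell on the deposited scale by 1.17 and was not called relative to the median. Mir1907 lies within Trps1, which fell too. It rested on 35 and 68 fragments in P and on 12 and 18 in PRL, and its call depended on the processing. The call on Mir1907 was lost relative to the median, with median ratio scaling, after quantile normalization and within bins of GC content. It was also lost without N replicate 1 or 2, P replicate 2 or PRL replicate 1 or 2. Mir1898 (log2 fold change -1.76 ± 0.42, adjusted p = 0.0307) and Rnu73b (log2 fold change -1.77 ± 0.17, adjusted p = 3.27e-04) fell as well. Few fragments stood behind these values, 27 and 24 in P and 7 and 8 in PRL for Mir1898. For Rnu73b they numbered 19 and 26 in P and 6 and 7 in PRL. The genes in which they lie, Zfr and Rps3a1, differed by -0.35 and 0.11 and were not called. The call on Mir1898 was lost when any 1 of the 4 libraries was left out, with adjusted p-values of 0.0902 to 0.134. These libraries do not measure mature microRNAs, and the fragments counted at such genes may come from the transcript around them.

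The change of a gene also went with its base composition and length, over all genes and not only in the lists. Genes were put into 5 equal classes of GC content and of exon length. In the class with the lowest GC content (median 41.5%) the median log2 fold change was -0.45 and 11.3% fell, against -0.20 in the next class and -0.11 to -0.08 in the other 3. Among these AU-rich genes were Thoc2, of mRNA export (log2 fold change -1.61 ± 0.08, adjusted p = 1.40e-06), the splicing gene Pnisr (log2 fold change -1.64 ± 0.07, adjusted p = 8.62e-07) and the chromatin remodeller Atrx (log2 fold change -1.76 ± 0.08, adjusted p = 1.30e-06), of which Thoc2 and Pnisr were chosen after their values were seen, and Thoc2 was not called after centring within bins of GC content, at -0.97. From the class of shortest to that of longest exons the median change went from -0.05 to -0.33. Across genes the Spearman correlation with the log2 fold change was 0.27 for GC content and -0.21 for length, where genes are not independent replicates and all points share the same 4 libraries. The difference between the PRL libraries also went with length, from 0.05 in the shortest to -0.06 in the longest class, and that between the P libraries did not, at 0.007 and -0.001. The 20 most abundant genes took 10.9% and 10.6% of the fragments in P and 15.3% and 15.2% in PRL. The part of composition, length and abundant transcripts in the downward shift was not tested.

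**Figure D5:**
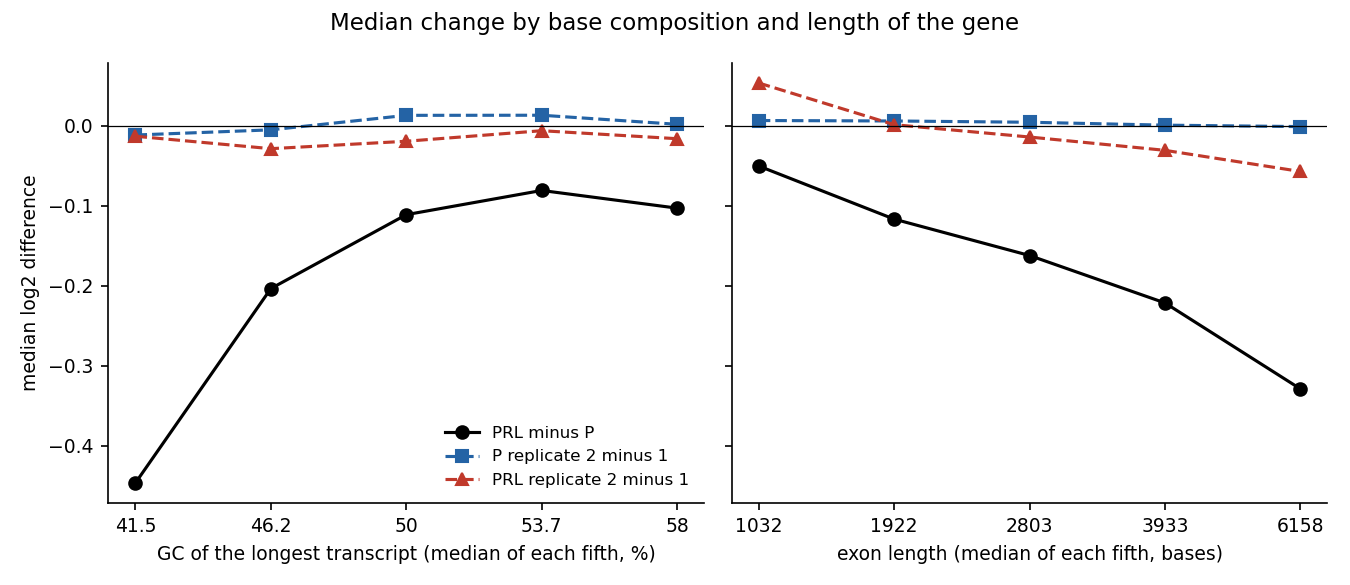
Median log2 difference (vertical axes) by class of GC content of the longest transcript (left, %) and of exon length (right, bases), for PRL minus P (black) and for replicate 2 minus replicate 1 of P (blue) and of PRL (red). The black line lies lowest in the class of lowest GC content, at -0.45, and in the longest genes, at -0.33.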

How the data were processed

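The data comprise RNA libraries in duplicate for 4 groups, ESC, N, P and PRL. The authors trimmed the reads with Trimmomatic, mapped them to GRCm38/mm10 with TopHat 2.1.0, assigned them to genes by featureCounts (Subread 1.5.0) and deposited FPKM per library. Neither the annotation release nor the strandedness of counting is given in the sources used here. The 4 deposited tables of comparisons hold fold changes, p-values and mean counts from DESeq2 of the authors, and they were not used.

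Genes at 1 FPKM or more in at least 2 of the 4 P and PRL libraries were tested with limma 3.58.1 (statmod 1.5.0, R 4.3.3, eBayes with trend and robust options) on log2(FPKM + 1). N, P and PRL were fitted together, with 3 residual degrees of freedom and a median total of 8.53, and the Benjamini-Hochberg adjustment covered all 11439 genes. Calls needed a log2 fold change of 1 and an adjusted p under 0.05. FPKM were whole numbers of fragments within 0.005 in all 16933 genes above 0 in at least 3 libraries, which gave the depth. Exact intervals from these fragments cover counting error only. The script was tested on simulated data.

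The genes and the 53 lists were chosen with earlier results of these data known. Named were the 20 largest rises and 20 largest falls whose higher group averaged 10 FPKM or more and whose libraries did not overlap, genes named by the study, and up to 4 called and 2 other members of each list. This gave 239 genes, of which 238 were tested. Any other gene is named with the remark that its values had been seen. One gene that the rule named is not reported here. Promoter windows came from RefSeq (GRCm38.p6) and transcripts were aligned with edlib. Alternatives were pseudocounts of 0.1 and 0.5, other filters, scalings, libraries, thresholds and variance models, a replicate block, and leaving out each library. Those with voom weights and with bins of GC content or length were chosen after seeing the data. Python 3.11.15, pandas 2.3.3, numpy 2.4.6, scipy 1.17.1 and matplotlib 3.10.9 were used.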

Additional observations from a re-analysis of the deposited data

How the results depend on the processing

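No named gene that was called changed direction under any alternative. Of the 164 genes that rose, 164 were also called with median ratio scaling (280 rose), 164 relative to the median (260), 155 after quantile normalization (274) and 164 with no minimum fold (1920). Of the 538 that fell, 264 were also called with median ratio scaling (264 fell), 280 relative to the median (280) and 264 after quantile normalization (268). With a pseudocount of 0.1, 1023 fell, with no minimum fold 5436 fell, and with voom weights on fragments 1134 fell. After centring within 20 bins of GC content 213 fell, and within bins of exon length 288. The last 3 alternatives were chosen after seeing the data. The median log2 fold change was 0.034 with median ratio scaling, 0.011 after quantile normalization, 0 by construction relative to the median, -0.0064 within bins of GC content and -0.00095 within bins of length. It was -0.142 with the filter at 5 FPKM, -0.082 with no filter, -0.206 and -0.196 with pseudocounts of 0.1 and 0.5, and -0.210 with voom weights. Leaving out each library gave 160 to 173 rises, 519 to 579 falls and medians of -0.192 to -0.174, where the lone library was assumed to vary like the other groups. With the replicate number as a block, 164 genes rose and 538 fell, of which 163 and 533 were the same genes. Correlations of replicate differences across genes between the HC11 groups were -0.010 to 0.070. They cannot decide whether samples of the same number were paired, since a shared effect may be small or limited to few genes. The labels do not say that a number marks a shared culture. Depth limits genes under 1 FPKM, where few fragments stand behind a value. The causes of the shifts with scaling were not tested.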

Other observations

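The list of early response genes contained some of the larger rises, though most of its members were not called. Arl4d, a small GTPase, was at 0.603 and 0.853 FPKM in P and 24.2 and 30.3 in PRL (log2 fold change 4.03 ± 0.14, adjusted p = 4.89e-07), and it passed the filter through the PRL libraries alone. Maff, a small MAF factor, was at 4.56 and 4.74 FPKM in P and 23.5 and 25.4 in PRL (log2 fold change 2.17 ± 0.07, adjusted p = 1.84e-07). Myc, the growth regulator, was at 11.4 and 12.0 FPKM in P and 26.2 and 28.8 in PRL (log2 fold change 1.17 ± 0.06, adjusted p = 1.91e-06), with no overlap of libraries. Klf2, a zinc finger factor, fell from 19.0 and 19.1 FPKM to 5.76 and 5.57 (log2 fold change -1.59 ± 0.05, adjusted p = 2.61e-07). Of the 22 genes of this list that passed, 3 rose and 1 fell, while 6 rose relative to the median, 7 with median ratio scaling and 5 after quantile normalization. Among the 18 not called on the deposited scale were Fos (0.68), Jun (0.71), Egr1 (-0.34) and Nr4a1 (-0.90), given here after their values were seen.

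Of the mammary lineage factors 22 genes passed and 2 fell on the deposited scale but not relative to the median, Nfib (log2 fold change -1.08 ± 0.06, adjusted p = 3.31e-06) and Hey1 (log2 fold change -1.07 ± 0.06, adjusted p = 2.73e-06), which is also among the 2 genes of the Notch pathway that fell. Sox9, a factor of luminal progenitors, differed by -0.23 ± 0.05, and Elf5, a factor of alveolar cells chosen after its values were seen, differed by -0.32 ± 0.07. Of the TGF-beta, BMP and ID list 22 genes passed and 1 fell, Id3, at 16.7 and 12.8 FPKM in P and 3.96 and 5.85 in PRL (log2 fold change -1.42 ± 0.24, adjusted p = 0.0095). The endopeptidase Mme was the single gene called among 10 of the renin-angiotensin list that passed. Among 31 proteasome genes limma called 0, with or without voom weights, and 17 were lower at an unadjusted p under 0.05. Of all 11439 genes tested at least 5436 were lower at that p in limma's test.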
